A study of Mus musculus with 29 samples.

Results

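The interferon response genes are 38 mouse genes chosen by symbol: the receptor of type I interferon, the factors and RNA sensors that act with it, and genes that interferon is known to induce. All but Ifi27 were found in the table by an exact match of the gene symbol, so 37 of its 30025 genes are described, and all 37 passed the filter on low values that left 15409 genes for testing. RNA-seq had been run on sorted bone marrow cells of C57BL/6J mice that carry a heterozygous germ line deletion in chromosome band 5A3 (5A3+/del) and of wild-type (WT) mice, 5 of each genotype and between 12.42 and 13.85 weeks of age, with no other allele or treatment given. The deleted segment is syntenic to a part of human 7q22 that is often lost in myelodysplastic syndrome. 3 populations were sorted from each mouse: CD150hi and CD150lo hematopoietic stem cells (HSC) and CD150neg multipotent progenitors (MPP, labelled as CD150neg HSC in the sample annotation). Each of the 6 groups held 5 libraries, except the 5A3+/del CD150neg MPP with 4. The comparisons asked whether the members differed between genotypes within a population and between populations, and whether the genotype difference itself changed from one population to another. None of the 37 members is among the genes of the deleted interval.

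Type I interferons bind a receptor made of Ifnar1 and Ifnar2, whose kinases activate Stat2. Stat2 acts with Irf9 in a complex that binds the interferon-stimulated response element in promoters and turns on antiviral genes. Type II interferon signals through another receptor and the GAS element of promoters, and induces the immunity-related and guanylate-binding GTPases. Blood stem cells are known to express part of this program without infection, and interferon is known to drive quiescent stem cells into cycle.

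Promoter windows show the letters that these factors read. RefSeq windows of 300 bases, which begin 250 bases before an annotated gene start (assembly GRCm38.p6, another build than the mm9 used for the expression values), were matched by symbol for 32 of the 37 members; Dhx58, Mx1, Usp18, Iigp1 and Rtp4 had none. The core of the response element, GAAA, any 2 bases and GAAA again on either strand, occurred in a window of 17 of the 32 members (53.1%) and of 3.99% of all 27025 genes with windows. The GAS core TTCNNNGAA, which reads the same on both strands, occurred for 12 members (37.5%) and 9.55% of all genes. 5 members held both, and in Ifitm3 and Bst2 the 2 motifs shared bases. By role, the response element core was found in 5 of 6 GTPases with a window, 6 of 10 antiviral effectors, 2 of 3 oligoadenylate synthetase genes and neither receptor gene. TTCNNNGAA was found in 2 of 6 GTPases, 5 of 10 antiviral effectors, 1 of 3 oligoadenylate synthetase genes and both receptor genes. A match describes these letters in this window only. Shown are windows of the 6 most highly expressed members that hold the core among those whose values are given in full below, with each match to the core, or to its reverse complement, in capitals:
Ifitm3, chr7:141010695-141010994, minus strand: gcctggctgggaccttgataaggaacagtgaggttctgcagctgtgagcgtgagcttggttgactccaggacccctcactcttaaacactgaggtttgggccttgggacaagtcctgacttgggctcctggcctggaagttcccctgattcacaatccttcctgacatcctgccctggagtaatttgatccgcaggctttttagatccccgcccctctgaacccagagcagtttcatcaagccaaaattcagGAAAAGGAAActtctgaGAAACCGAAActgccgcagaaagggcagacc
Ifitm2, chr7:140955912-140956211, minus strand: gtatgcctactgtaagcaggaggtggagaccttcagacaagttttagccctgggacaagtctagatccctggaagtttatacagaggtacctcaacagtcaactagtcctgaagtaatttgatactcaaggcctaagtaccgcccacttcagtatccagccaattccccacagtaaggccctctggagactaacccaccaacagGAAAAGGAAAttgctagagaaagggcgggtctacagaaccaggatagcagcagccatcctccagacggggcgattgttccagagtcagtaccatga
Irgm2, chr11:58214727-58215026, plus strand: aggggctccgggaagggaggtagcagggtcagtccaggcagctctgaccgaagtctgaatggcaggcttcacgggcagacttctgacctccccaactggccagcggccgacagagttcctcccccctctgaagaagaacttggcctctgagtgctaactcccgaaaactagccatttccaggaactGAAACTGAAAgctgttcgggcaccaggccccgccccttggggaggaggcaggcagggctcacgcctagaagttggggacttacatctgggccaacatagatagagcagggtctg
Igtp, chr11:58199306-58199605, plus strand: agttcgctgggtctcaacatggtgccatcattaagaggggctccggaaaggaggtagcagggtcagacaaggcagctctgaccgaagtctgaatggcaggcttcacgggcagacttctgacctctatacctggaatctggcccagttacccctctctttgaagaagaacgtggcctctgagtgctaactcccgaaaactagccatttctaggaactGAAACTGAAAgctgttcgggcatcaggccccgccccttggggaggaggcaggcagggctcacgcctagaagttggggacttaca
Ddx58, chr4:40239776-40240075, minus strand: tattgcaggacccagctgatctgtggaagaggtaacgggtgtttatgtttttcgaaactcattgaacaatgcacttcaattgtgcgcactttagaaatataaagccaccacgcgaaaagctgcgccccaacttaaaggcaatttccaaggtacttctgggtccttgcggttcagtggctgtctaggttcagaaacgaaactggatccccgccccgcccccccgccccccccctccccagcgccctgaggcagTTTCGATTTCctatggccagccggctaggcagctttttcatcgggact
Gbp3, chr3:142559794-142560093, plus strand: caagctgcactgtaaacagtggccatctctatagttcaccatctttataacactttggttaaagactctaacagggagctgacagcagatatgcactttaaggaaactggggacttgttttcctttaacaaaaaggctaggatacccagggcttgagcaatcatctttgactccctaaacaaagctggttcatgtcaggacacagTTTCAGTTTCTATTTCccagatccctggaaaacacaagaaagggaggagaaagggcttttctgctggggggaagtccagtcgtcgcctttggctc
In Ifitm3 both matches lie just after the annotated start, the first bases 2 and 19 positions past it. In Ddx58 the match begins 2 positions past the start, and in Ifitm2, Irgm2 and Igtp the match begins 46, 64 and 34 bases before it. Gbp3 holds 2 overlapping matches on the opposite strand. The windows of the neighbouring paralogs Igtp and Irgm2 share an identical run of 61 bases, whereas no other pair among the 6 windows shares more than 13.

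The 29 libraries held between 21229505 and 38797579 fragments (median 26967126), as recovered from the deposited values. 5 genes of the deleted interval, Mll5, Psmc2, Orc5, Pmpcb and Dnajc2, checked the genotype labels: in 14 of 15 pairs of gene and population every 5A3+/del library lay below every WT library, with log2 differences from -1.17 to -0.55. Markers of the sorted cells (Kit, Ly6a, Slamf1, Procr, Cd34 and Flt3) summed to between 338 and 715 FPKM (fragments scaled by exon length and library size) in all libraries. 1 WT mouse, mouse 3, stood apart with Xist at 234 to 319 FPKM in its 3 libraries against at most 0.47 elsewhere. Xist is the RNA of the inactive X chromosome of female cells, and the sample annotation used here gives no sex for the mice. Values without this mouse are given below for Ifitm3 and Gbp3 in CD150hi HSC, for the population differences of Ifitm1 and Ddx58 and for the member mean in WT CD150neg MPP. Summed neutrophil markers (6 of 6 genes) came to 59.7 to 912 FPKM in CD150hi HSC of WT mice. Where the deletion was carried they came to 14.4 to 123 FPKM. The sums for CD150lo HSC were 12.4 to 1356 (WT) and 20.3 to 361 (5A3+/del). The defining marker Ly6g was under 3 fragments in every library of 5A3+/del CD150hi HSC, of CD150lo HSC in both genotypes and of WT CD150neg MPP. This was not so in WT CD150hi HSC and 5A3+/del CD150neg MPP. Among 4 markers of plasmacytoid dendritic cells, which make type I interferon, the sum was at most 4.56 FPKM in any library.

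Levels of the members spanned more than 2 orders of magnitude. FPKM is scaled by transcript length, so that genes can be set side by side, and mean FPKM over the 29 libraries is given here. The 3 Ifitm genes, which encode small membrane proteins that block virus entry, stood far above all other members, with 722 for Ifitm3 (range 521 to 1008), 504 for Ifitm2 (348 to 704) and 384 for Ifitm1 (265 to 561). They lie close together on chromosome 7 (mm9: Ifitm2 at chr7:148140736-148141882, Ifitm1 at chr7:148153120-148155724 and Ifitm3 at chr7:148195485-148196669) and were above 99% of all genes tested. The next member, the GTPase gene Ifi47, had a mean of 39.1 (29.4 to 53.2).

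**Figure D1:**
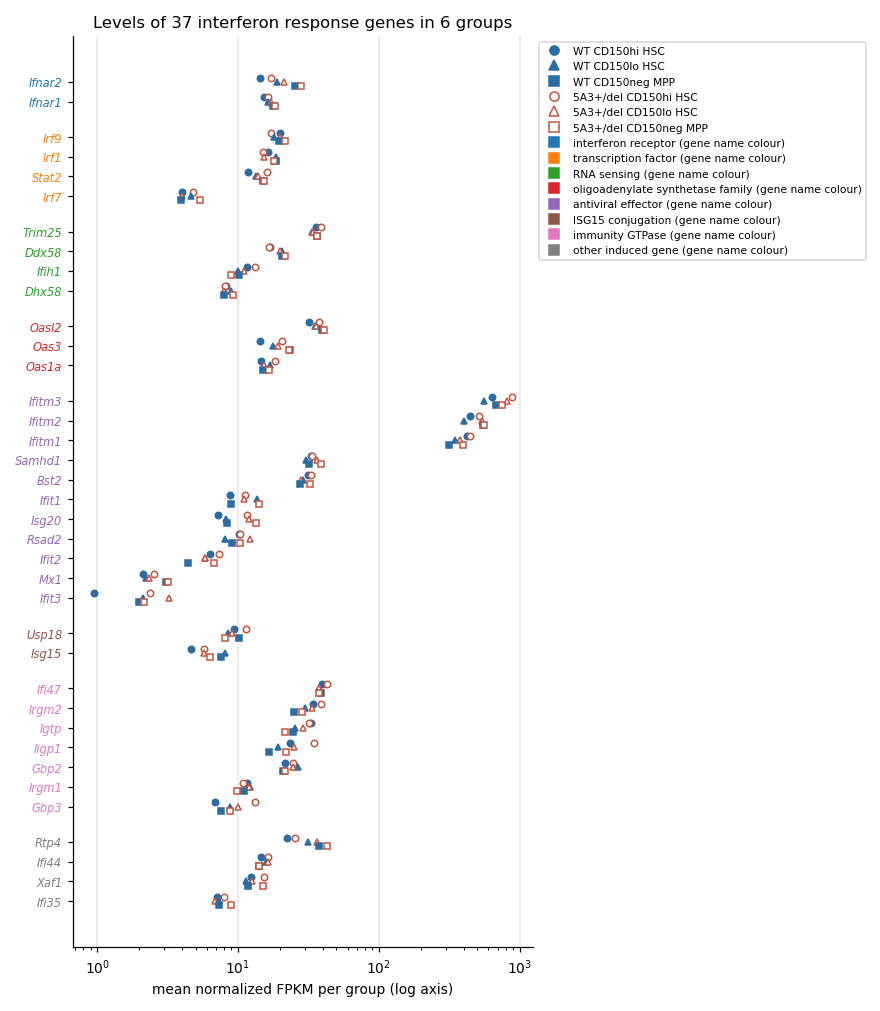
Mean normalized FPKM (log axis) of the 37 interferon response genes in each of the 6 groups, ordered by role and, within a role, by mean FPKM. The 3 Ifitm genes lie between 313 and 887, while no other member exceeds 42.8 in a group mean.

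Other effectors were moderate or low. The dNTPase gene Samhd1 had a mean FPKM of 33.9 (25.0 to 51.0) and Bst2, which tethers budding virus, 30.2 (15.7 to 47.1). Ifit1 (5.82 to 20.7), Rsad2 (4.00 to 19.99), Isg20 (5.80 to 24.9) and Ifit2 (2.64 to 10.5), which act on viral RNA or replication, had means from 6.04 to 11.2. Mx1 (2.59, range 0.59 to 5.90) and Ifit3 (2.15, range 0.074 to 5.17) were the lowest members, Ifit3 with as few as 4 fragments in a library.

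The signalling genes formed a narrower band. The receptor genes Ifnar2 and Ifnar1 had means of 20.7 (9.58 to 32.5) and 16.8 (11.6 to 27.9) FPKM. Of the transcription factors, Irf9 was at 19.4 (12.6 to 34.0), Irf1 at 17.1 (12.3 to 27.6), Stat2 at 14.3 (6.53 to 20.9) and Irf7, which amplifies the response, at 4.43 (1.03 to 8.14). Among the genes of cytosolic RNA sensing, Trim25, a ubiquitin ligase that activates the sensor encoded by Ddx58, led with 35.9 (28.7 to 45.3), followed by Ddx58 with 19.3 (13.0 to 28.1), Ifih1 with 10.9 (6.46 to 17.7) and Dhx58 with 8.37 (4.89 to 16.6).

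Of the oligoadenylate synthetase family, whose products sense double-stranded RNA, Oasl2 was at 36.8 (21.9 to 62.5), Oas3 at 19.7 (10.8 to 30.5) and Oas1a at 16.1 (8.39 to 32.6). Isg15, the ubiquitin-like modifier that is a widely used marker of interferon exposure, was only at 6.34 (range 1.11 to 10.9), and Usp18, its deconjugase, at 9.55 (4.81 to 17.6). The GTPases after Ifi47 were Irgm2 at 31.6 (23.5 to 47.9), Igtp at 27.7 (18.5 to 40.5), Iigp1 at 23.5 (9.33 to 38.5), Gbp2 at 23.5 (15.4 to 33.8), Irgm1 at 11.3 (7.78 to 14.6) and Gbp3 at 9.19 (4.65 to 16.8). Of the remaining induced genes, Rtp4 was at 32.6 (12.8 to 52.3), Ifi44 at 15.2 (9.64 to 20.7), Xaf1 at 13.1 (7.26 to 32.1) and Ifi35 at 7.61 (3.80 to 11.4). Below the 3 Ifitm genes the range of each member overlapped that of the next in this order. The within-group SD on the log2 scale ran from 0.14 for Ifitm3 to 0.62 for Isg15. Near-identical copies, as in the Gbp, Irgm and Ifitm families, can share reads, and how such reads were assigned is not given in the sources used here. Ifnar2, Irf7, Irf9, Irf1, Ifi47, Ifi35, Dhx58 and Samhd1 overlap another annotated gene.

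In CD150hi HSC, no member passed the threshold between genotypes (limma, adjusted p under 0.05; 0.156% of all 15409 genes passed). 2 members came close. 31 of the 37 were higher on average in 5A3+/del cells, with a median log2 difference of 0.19, where 50.7% of all genes tested were higher, with a median of 0.00. Without 5A3+/del mouse 2 the members' median was 0.12. At an unadjusted p under 0.05, there were 6 members (16.2%) against 13.1% of all genes. All 11 antiviral effectors had an estimate above 0, though the lowest was 0.0006 and the highest 0.65. So did 5 of 7 GTPases, 2 of 4 transcription factors, 2 of 4 genes of RNA sensing and every member of the remaining roles.

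Ifitm3 had the clearest separation. Normalized FPKM in the 5 WT CD150hi HSC libraries were 674, 631, 631, 725 and 536, and in the 5A3+/del libraries 951, 967, 907, 781 and 831, so that the groups did not overlap. The log2 difference was 0.47 (SE 0.11; limma, adjusted p = 0.0519), with means of 640 ± 69.6 and 887 ± 79.7 (SD, n = 5). Quantile normalization gives equal values to equally ranked genes, so that values recur between libraries at this level. In the deposited FPKM the groups overlapped slightly, with 597 to 777 in WT and 738 to 1008 in 5A3+/del, and without normalization the log2 difference was 0.40 (adjusted p = 0.134).

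Gbp3, which encodes a guanylate-binding protein (mm9 chr3:142223016-142236173), had the largest log2 difference of the 37 members in this comparison. Its normalized FPKM in WT CD150hi HSC were 7.26, 6.55, 8.55, 7.36 and 4.53. In 5A3+/del CD150hi HSC they were 13.6, 14.6, 16.4, 10.3 and 10.8. Here too the groups did not overlap, as was the case for 2.58% of all genes tested. The log2 difference was 0.85 (SE 0.19; limma, adjusted p = 0.0519).

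Both genes passed when mouse was fitted as a random block (adjusted p = 0.0498 for each). Without WT mouse 3, Gbp3 passed (log2 difference 0.93, adjusted p = 0.0428) and Ifitm3 did not (0.48, adjusted p = 0.0748). When only the 2 groups compared were fitted, the adjusted p was 0.426 for Ifitm3 and 0.386 for Gbp3. Summed neutrophil markers also differed between these groups, as given above. Those of monocytes or macrophages (5 genes) had a median of 176 FPKM in WT (162 to 209) and 193 FPKM in 5A3+/del (185 to 217). The part of these cell types in the result was not tested. Without WT mouse 1, the library with the highest neutrophil sum, the log2 differences were 0.50 for Ifitm3 and 0.88 for Gbp3. That fit leaves the neutrophil sums unequal. WT mice 2, 4 and 5 had 345, 133 and 309 FPKM, above every 5A3+/del library of this population, and WT mouse 3 had 59.7.

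The third smallest p in CD150hi HSC belonged to Iigp1, an immunity-related GTPase that acts on pathogen vacuoles. Its values in WT were 25.6, 19.99, 23.8, 28.6 and 19.6, and in 5A3+/del 38.4, 26.4, 34.1, 35.2 and 39.4. The ranges overlapped through 1 library of each group. The log2 difference was 0.54 (SE 0.19; limma, adjusted p = 0.210). Isg20 (0.57), Oas3 (0.48) and Stat2 (0.43) were the other members with an unadjusted p under 0.05, with adjusted p from 0.260 to 0.305.

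**Figure D2:**
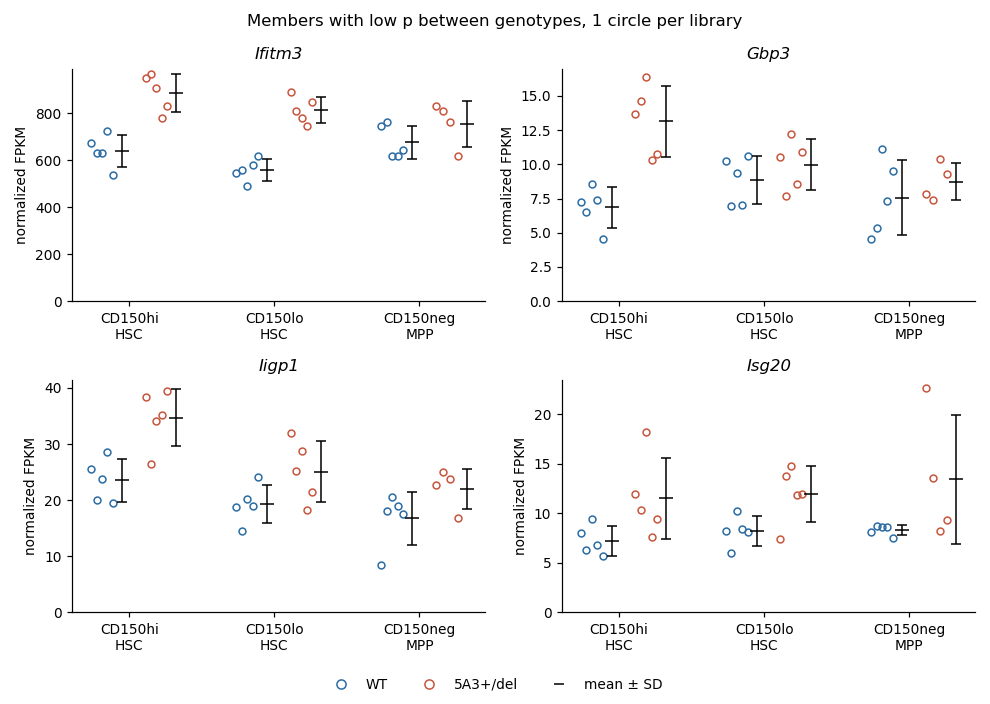
Normalized FPKM of Ifitm3, Gbp3, Iigp1 and Isg20 by population and genotype, 1 circle per library with the group mean ± SD beside them. For Ifitm3 the 5A3+/del circles lie above all WT circles in CD150hi HSC and CD150lo HSC but not in CD150neg MPP, and for Gbp3 in CD150hi HSC only.

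In CD150lo HSC, again no member passed (0.0324% of all genes did), and Ifitm3 missed the threshold by little. Its WT values were 544, 557, 492, 581 and 617, and its 5A3+/del values 889, 812, 781, 746 and 847. The groups were fully apart, as for 1.63% of all genes. The log2 difference was 0.55 (SE 0.11; limma, adjusted p = 0.0504), and in 7 of 20 alternative fits, among them the random mouse block (adjusted p = 0.0455), it passed. The lowest estimate, 0.37, came with median scaling (adjusted p = 0.291).

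Ifitm2 and Irf1 had the next smallest p in CD150lo HSC. Ifitm2 had a mean of 405 ± 53.3 in WT and 537 ± 82.1 in 5A3+/del, with a log2 difference of 0.40 (SE 0.15; limma, adjusted p = 0.487). It was 0.25 without normalization and 0.23 with median scaling. Irf1, an early interferon-induced transcription factor, was lower, with 18.7 ± 2.53 against 15.2 ± 1.33 and a log2 difference of -0.28 (SE 0.13; limma, adjusted p = 0.676). The groups overlapped for both genes. At an unadjusted p under 0.05 (limma) there were 5 members (13.5%), against 6.87% of all genes. Over the members, 25 of 37 were higher in 5A3+/del, with a median of 0.07, against 52% of all genes and a median of 0.01. The members' median was 0.13 without 5A3+/del mouse 4 and 0.04 with median scaling.

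In CD150neg MPP, no member passed and none separated the genotypes without overlap (0.0454% of all genes passed and 1.51% did not overlap). Ifitm1, Isg20 and Samhd1 had the smallest p, each with an adjusted p of 1.00. Ifitm1 averaged 313 ± 33.5 in WT and 394 ± 64.2 in 5A3+/del (n = 5 and 4), and Samhd1 32.0 ± 1.90 and 38.9 ± 6.93. With an unadjusted p under 0.05 (limma) there were 5 members (13.5%), against 4.27% of all genes. 26 of 37 members were higher, with a median of 0.08, against 49.8% of all genes and a median of 0.00. That median depended on single mice, with 0.03 without 5A3+/del mouse 1, 0.04 without 5A3+/del mouse 3, 0.20 without 5A3+/del mouse 4 and 0.13 without WT mouse 2.

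Isg20, an exonuclease that degrades viral RNA (mm9 chr7:86058310-86065248), was the one member with an unadjusted p under 0.05 in all 3 populations. How many of all genes had such a p in all 3 was not counted. In CD150hi HSC the mean normalized FPKM of Isg20 was 7.23 ± 1.51 for WT and 11.5 ± 4.06 for 5A3+/del mice. The corresponding means were 8.22 ± 1.52 and 12.0 ± 2.848 in CD150lo HSC. In CD150neg MPP the WT libraries were close together, at 8.17, 8.78, 8.62, 8.67 and 7.51, and the 5A3+/del libraries spread from 8.22 to 22.6. The log2 differences were 0.57, 0.48 and 0.53, with adjusted p of 0.260, 0.690 and 1.00 (limma). Without 5A3+/del mouse 1, the library at 22.6, the difference in CD150neg MPP was 0.26. The 3 differences share mice, as each mouse gave all 3 populations except 1.

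**Figure D3:**
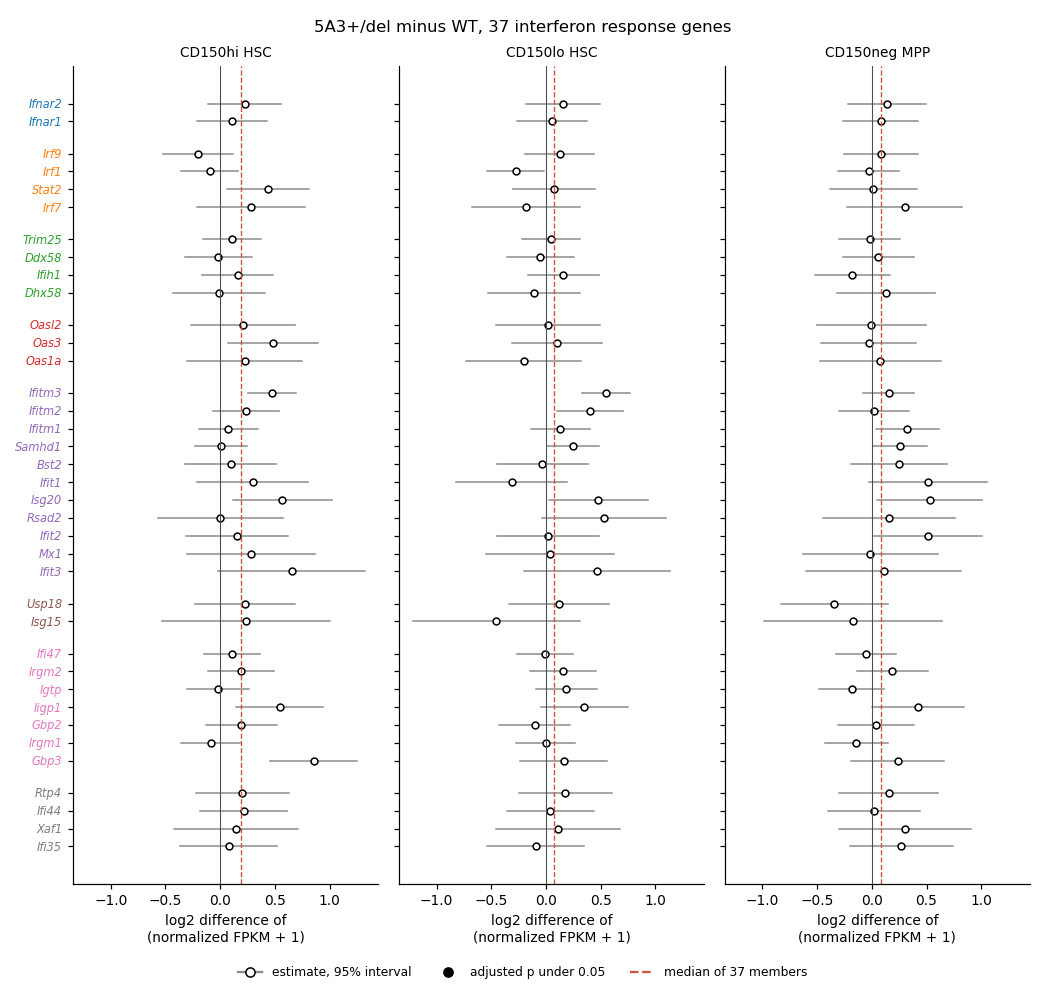
Log2 difference between 5A3+/del and WT with its 95% interval for each of the 37 members in the 3 populations, ordered by role. No filled point appears, since no member had an adjusted p under 0.05, and the dashed medians lie at 0.19, 0.07 and 0.08.

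Mice differed from each other across the whole set. The mean of log2(normalized FPKM + 1) over the 37 members in CD150hi HSC was 4.19 ± 0.10 for WT and 4.40 ± 0.18 for 5A3+/del mice (SD, n = 5). It was 4.28 ± 0.04 and 4.36 ± 0.15 in CD150lo HSC, and 4.28 ± 0.09 and 4.40 ± 0.21 in CD150neg MPP. In WT CD150neg MPP, mouse 3 was at 4.45 and the other 4 mice at 4.21 to 4.27. 5A3+/del mice 1 and 3 lay above the population mean in all 3 populations, by 0.12 to 0.27. 5A3+/del mouse 4 lay below it in all 3, by 0.16, 0.20 and 0.21, and below every WT library in CD150lo HSC and CD150neg MPP. The 5A3+/del libraries thus ranged on both sides of the WT libraries in those populations. Libraries of 1 mouse are not independent of each other here.

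**Figure D4:**
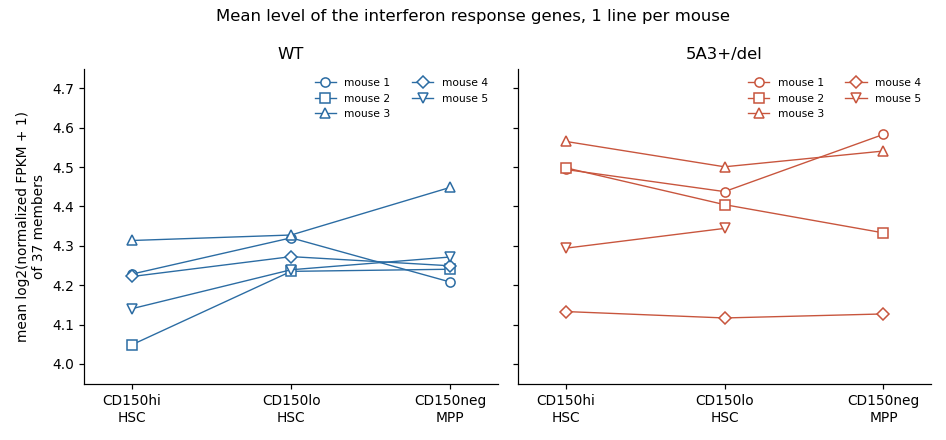
Mean of log2(normalized FPKM + 1) over the 37 members in each library, with 1 line per mouse; the vertical axis does not start at 0. The 5A3+/del mice spread from 4.12 to 4.58, with mouse 4 the lowest of them in every population, and the WT mice from 4.05 to 4.45.

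Members also moved with each other within groups. Over the 666 pairs of members, the median correlation of deviations from the group mean across the 29 libraries was 0.17, against -0.0005 over all pairs of tested genes, and 5.71% of member pairs against 1.58% of all pairs exceeded 0.5. The points share mice and libraries. Oasl2 followed the mean of the other members most closely (r = 0.74), then Ifit1 (0.69), Ifi44 (0.65), Ddx58 (0.62) and Irf7 (0.58). The highest pair was Stat2 with Bst2 (0.79). Irf1 (0.03) and Ifitm2 (-0.13) were least like the rest, and Ifitm3 was intermediate (0.39).

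Between populations, members moved in both directions, most of all from CD150hi HSC to CD150neg MPP. 7 of 37 members (18.9%) passed in that comparison, against 13.2% of all genes: Ifnar2, Rtp4 and Ddx58 were higher in CD150neg MPP, and Igtp, Iigp1, Irgm2 and Ifitm1 lower (limma, mean over both genotypes). The median over the members was 0.05, against 0.00 for all genes. In sorted bulk RNA, fewer cells of a type and less RNA per cell cannot be told apart. Summed markers of NK cells (3 of 3 genes, with the defining marker Ncr1 under 3 fragments in every library of both populations) also differed over this step, from 4.74 to 14.3 FPKM in CD150hi HSC to 18.2 to 44.4 in CD150neg MPP in WT mice, and from 4.26 to 18.8 to 29.5 to 54.3 in 5A3+/del mice. Those of T cells (5 genes) were 1.15 to 3.13 and 3.32 to 10.2 FPKM in WT mice and 1.81 to 3.42 and 2.59 to 3.59 in 5A3+/del mice. Those of plasmacytoid dendritic cells were 0.074 to 1.07 and 1.53 to 4.56 FPKM in WT mice and 0.023 to 0.54 and 0.55 to 1.28 in 5A3+/del mice. Some of these markers were under 3 fragments in every CD150hi HSC library of both genotypes. They were Cd3e and Cd3g of T cells, and Siglech, Klk1 and Cox6a2 of plasmacytoid dendritic cells. The part of these cell types in the population differences was not tested.

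Ifnar2, the receptor chain that binds interferon with high affinity (mm9 chr16:91373028-91419696), showed the largest step. Its normalized FPKM had a median of 14.8 in CD150hi HSC (lowest 10.1, highest 25.1), 20.3 in CD150lo HSC (16.0 to 23.3) and 26.6 in CD150neg MPP (22.1 to 29.8), with n = 10, 10 and 9. It was higher in CD150neg MPP than in CD150hi HSC in all 9 mice with both, by 0.76 on the log2 scale (SE 0.12; limma, adjusted p = 3.16e-05). The step from CD150hi to CD150lo HSC was 0.36 (adjusted p = 0.0551). The overlapping gene Il10rb rose in the same comparison, as given below. Ifnar1 did not pass in any of the comparisons.

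Rtp4, a receptor chaperone gene that interferon induces (mm9 chr16:23610005-23614308), rose at the first step. Its median was 24.5 in CD150hi HSC (13.4 to 31.4), 33.8 in CD150lo HSC (21.9 to 47.7) and 42.6 in CD150neg MPP (29.3 to 51.3). It was the single member that passed between CD150lo and CD150hi HSC, where 7.64% of all genes did, with a log2 difference of 0.51 (SE 0.15; limma, adjusted p = 0.0285) and a higher value in CD150lo HSC in 10 of 10 mice. That call was lost in 9 of 22 alternative fits, among them those without WT mouse 1 (adjusted p = 0.0768), WT mouse 5 (0.0843), 5A3+/del mouse 1 (0.0628), 5A3+/del mouse 2 (0.0917) and 5A3+/del mouse 3 (0.0502). With mouse as a fixed block, Rtp4 and Ifitm1 passed, so that the count was 2, and with mouse as a random block Ifnar2 joined them for a count of 3. From CD150hi HSC to CD150neg MPP, Rtp4 rose by 0.75 (SE 0.15; adjusted p = 0.00071), and all 22 alternatives kept the call.

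3 of the 7 GTPases fell from CD150hi HSC to CD150neg MPP. The estimates of the other 4, Gbp3 (-0.22), Gbp2 (-0.11), Ifi47 (-0.11) and Irgm1 (-0.09), were below 0 and did not pass, with lower values in 7, 5, 8 and 4 of 9 mice. Of all genes tested, 50.8% had an estimate above 0. Igtp (mm9 chr11:58013058-58021093) had a median of 32.9 in CD150hi HSC (22.3 to 39.4) and 24.6 in CD150neg MPP (18.1 to 27.5), a log2 difference of -0.46 (SE 0.10; limma, adjusted p = 0.00155). Its neighbour Irgm2 (mm9 chr11:58028530-58036282) fell from a median of 36.8 (25.8 to 46.7) to 25.5 (21.5 to 34.9), with -0.42 (SE 0.11; adjusted p = 0.00807). Iigp1 went from 27.5 (19.6 to 39.4) to 19.0 (8.44 to 25.0), with -0.57 (SE 0.14; adjusted p = 0.00532). The ranges overlapped in each case, while within mice Igtp and Iigp1 were lower in 9 of 9 and Irgm2 in 8 of 9.

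Ifitm1 and Ddx58 passed by less. Ifitm1 had a median of 447 in CD150hi HSC (329 to 492) and 323 in CD150neg MPP (274 to 450), a log2 difference of -0.31 (SE 0.10; limma, adjusted p = 0.0301), and was lower in 9 of 9 mice. In 5A3+/del libraries alone the difference was -0.18 (adjusted p = 0.571). Without WT mouse 3 it was -0.33 (adjusted p = 0.0218), and the call was lost without WT mouse 1 (0.0563), WT mouse 4 (0.0853), WT mouse 5 (0.0715) or 5A3+/del mouse 3 (0.114). Ddx58, which encodes the RNA sensor RIG-I, rose from 16.6 (12.8 to 20.4) to 20.9 (16.6 to 25.7), with 0.32 (SE 0.11; adjusted p = 0.0465), in 7 of 9 mice. With mouse as a fixed block Ddx58 no longer passed (adjusted p = 0.0565) while Oas3 and Ifih1 did, for a count of 8, and it was lost in 12 of 22 alternatives, among them those without WT mouse 2 (adjusted p = 0.153), 3 (0.0536) or 4 (0.122) and without 5A3+/del mouse 1 (0.113), 3 (0.0816), 4 (0.0530) or 5 (0.0983).

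The highest members of the other roles overlapped widely between populations, and none of them passed in a population comparison. Trim25 had medians of 38.0 (30.4 to 43.8), 34.1 (28.8 to 42.5) and 35.4 (29.7 to 42.7) in CD150hi HSC, CD150lo HSC and CD150neg MPP, in that order. For Irf9 they were 18.2 (13.6 to 27.1), 17.9 (16.0 to 22.2) and 20.3 (15.7 to 31.2), and for Oasl2 32.3 (22.9 to 48.8), 34.5 (26.1 to 46.0) and 38.3 (25.0 to 58.6). Those of Ifi47 were 40.3 (35.4 to 52.4), 38.1 (29.1 to 47.4) and 40.3 (32.5 to 44.7), and those of Usp18 10.2 (5.80 to 16.6), 9.07 (5.69 to 12.7) and 9.27 (4.70 to 12.2).

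Between CD150lo HSC and CD150neg MPP no member passed, where 0.292% of all genes did; 6 members had an unadjusted p under 0.05, against 7.93% of all genes. The smallest p was that of Ifnar2 (log2 difference 0.40; adjusted p = 0.194).

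**Figure D5:**
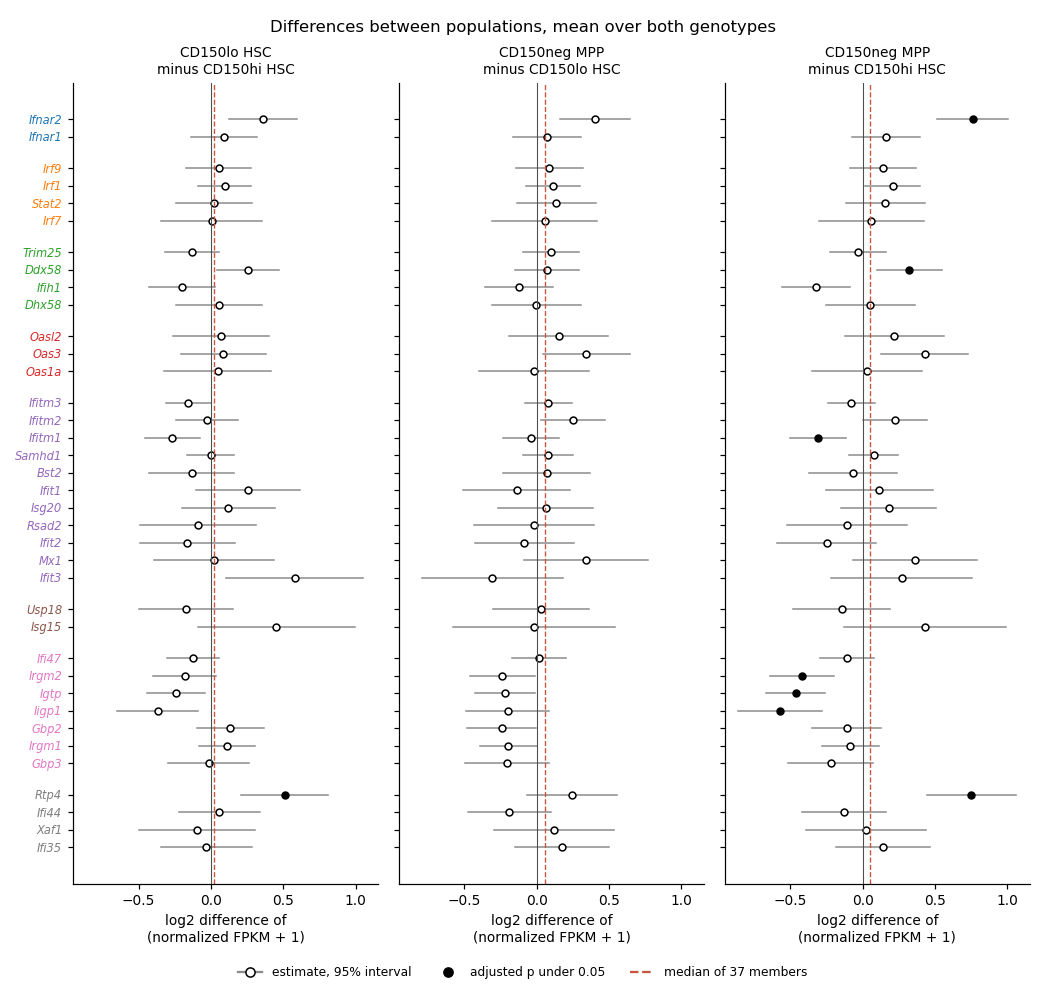
Log2 difference between populations, averaged over both genotypes, with its 95% interval for each of the 37 members. Filled points mark an adjusted p under 0.05: Rtp4 in the first panel, none in the second and 7 members in the third, with the 7 GTPases all left of 0 there.

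The genotype difference was not found to change between populations for any member, nor for any gene (limma interaction contrasts; 0% of all genes in each of the 3, with 614, 771 and 1227 genes at an unadjusted p under 0.05). Among members, 1, 2 and 1 had an unadjusted p under 0.05. From CD150hi to CD150lo HSC the estimate rose for 8 of 37 members (21.6%, median change -0.11), against 50.1% of all genes. From CD150lo HSC to CD150neg MPP it rose for 19 (51.4%, median 0.01), against 48.5%. From CD150hi HSC to CD150neg MPP it rose for 13 (35.1%, median -0.08), against 49%. These comparisons share groups. For Gbp3 the genotype difference was lower by 0.69 in CD150lo HSC than in CD150hi HSC, with a 95% interval from -1.26 to -0.13 (adjusted p = 0.999), and lower by 0.62 in CD150neg MPP than in CD150hi HSC, with a 95% interval from -1.20 to -0.04 (adjusted p = 0.596). For Ifitm3 it was lower by 0.39 in CD150neg MPP than in CD150lo HSC, with a 95% interval from -0.71 to -0.07 (adjusted p = 0.909). Ifit1 had the remaining p under 0.05, with a genotype difference 0.83 higher in CD150neg MPP than in CD150lo HSC (adjusted p = 0.946). These intervals are wide, so a change between populations of this size was not shown, nor was its absence.

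Interferon genes themselves were near 0. Ifnb1, Ifng, Ifna2, Ifna4, Il28a and Il28b gave at most 8 fragments in a library and between 1 and 13 in all 29 libraries together. Ifnk, a keratinocyte interferon, gave up to 33. Il28ra, the specific chain of the type III receptor, had over 3 fragments in 3 libraries. The type II receptor gene Ifngr1 was expressed, at 26.6 ± 4.27 normalized FPKM in WT CD150hi HSC.

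Of the upstream pathway genes that are no members (receptors, kinases, factors and inhibitors), 16 of 27 passed the filter on low values. None passed between genotypes. From CD150hi HSC to CD150neg MPP, Irf5 (0.82, SE 0.14), Ifngr2 (0.59, SE 0.19) and Il10rb (0.51, SE 0.14) rose and Socs1, an inhibitor of the kinases, fell (-0.77, SE 0.25), with adjusted p of 0.000112, 0.0396, 0.0127 and 0.0358 (limma). Irf5, a transcription factor of inflammatory genes, also rose from CD150hi to CD150lo HSC (0.62, SE 0.14; adjusted p = 0.00308). Its ranges in CD150hi HSC (2.04 to 5.57) and CD150neg MPP (5.83 to 10.2) did not overlap. The share of all genes without overlap between populations was not counted.

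Another 50 interferon-induced genes outside the members were tested. None passed between genotypes, with 11 (22%), 6 (12%) and 3 (6%) at an unadjusted p under 0.05 in CD150hi HSC, CD150lo HSC and CD150neg MPP, against 13.1%, 6.87% and 4.27% of all genes. In the same order, 40 (80%), 40 (80%) and 34 (68%) were higher in 5A3+/del, against 50.7%, 52% and 49.8% of all genes. From CD150hi HSC to CD150neg MPP, 5 rose and 10 fell, where 13.2% of all genes passed. From CD150lo HSC to CD150neg MPP none passed (limma), with 6 at an unadjusted p under 0.05. The 5 with the smallest p from CD150hi HSC to CD150neg MPP were all guanylate-binding protein genes that fell. On the log2 scale Gbp4 fell by 1.73, Gbp6 by 1.01, Gbp10 by 0.98, Gbp9 by 0.88 and Gbp7 by 0.54 (limma, adjusted p from 5.27e-07 to 9.60e-05).

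Gbp4 had a median of 11.0 normalized FPKM in CD150hi HSC (2.80 to 24.1), 4.03 in CD150lo HSC (2.70 to 6.05) and 2.66 in CD150neg MPP (1.60 to 4.01). It was lower in CD150neg MPP than in CD150hi HSC in 9 of 9 mice. From CD150hi to CD150lo HSC, 2 of the 50 rose and 6 fell, where 7.64% of all genes passed. Gbp4 fell by 1.24, Gbp10 by 0.72, Uba7, the activating enzyme for Isg15, by 0.72 and Gbp7 by 0.37, while Epsti1 rose by 0.51 (limma, adjusted p from 0.000109 to 0.00825). Gbp10 did not overlap between these populations (2.64 to 5.02 against 0.89 to 2.34), where the share of all genes without overlap was not counted. The member Gbp3 did not pass in any population comparison, with -0.22 (SE 0.14) from CD150hi HSC to CD150neg MPP.

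Ly6a, which encodes the Sca-1 protein used in the sort and is itself induced by interferon, was among these 50 genes. Its normalized FPKM in CD150hi HSC ranged from 89.2 to 141 (WT) and from 143 to 211 (5A3+/del). The genotypes did not overlap, as for 2.58% of all genes. The log2 difference was 0.61 (SE 0.18; limma, adjusted p = 0.1203). Since the populations were gated on its protein, the part of the gate in this difference was not tested.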

How the data were processed

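RNA had been amplified (NuGEN Ovation V2) and sequenced from sorted cells. The cells were negative for lineage markers, CD41 and CD48, positive for c-kit and Sca-1, and split by CD150. Per the submitters' processing notes, reads were aligned to mm9 with Bowtie 0.12.2 and counted with HTSeq. The authors deposited FPKM per gene for 29 libraries; fragments were recovered here from FPKM and GENCODE M1 exon lengths, with 98.3 to 98.8% of low values whole within 0.05.

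A gene entered the fit if its FPKM reached 1 in 4 or more libraries. Values were transformed as log2(FPKM + 1), which understates changes of low genes, quantile normalized and fitted with limma 3.58.1 (R 4.3.3) over 6 group means in all 29 libraries, with Benjamini-Hochberg adjustment over all 15409 genes and a threshold of 0.05. The fit was tested on simulated data. Tables were handled in Python 3.11.15 with pandas 2.3.3.

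The members and gene lists were chosen with earlier results of these data known. Values per library, or the lowest, median and highest, were given for members past the threshold, for the 3 smallest p per genotype comparison (as mean and SD for some) and for the highest member of each role, and the range for all others. Of the other lists, at most 5 genes per comparison were named by smallest p. Irf5, Ly6a, Ifngr1 and the interferon genes were described further after their values were seen. Groups came from the sample annotation, and libraries of 1 mouse were linked by its description code.

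Libraries of the same mouse come from the same animal and are paired. Their deviations from the group means correlated by -0.042 to 0.235 (median 0.0785, over 0.1 in 10 of 28 pairs), so mouse was also fitted as a replicate block. Mice of different genotype share a number only. Further alternatives were another pseudocount, filter, scaling, variance model, set of libraries, an age covariate and leaving out each mouse.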

Additional observations from a re-analysis of the deposited data

Results flagged for a closer look

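1 library lay far from the rest of its group in 10 of 234 groups tested (Dixon's test), where chance gives about 1 in 20, or 11.7. Values are normalized FPKM unless stated.

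Among genes of signalling and sensing, Ifnar2 was 16.0 in 5A3+/del CD150lo HSC replicate 4, with the others at 21.7 to 23.3. Ifih1 was 10.6 in 5A3+/del CD150neg MPP replicate 1, with the others at 8.17 to 8.47. Among antiviral effectors, Ifit3 was 4.24 in 5A3+/del CD150neg MPP replicate 3, with the others at 1.36 to 1.70, and Mx1 was 4.15 in 5A3+/del CD150lo HSC replicate 3, with the others at 1.503 to 2.26. Ifitm1 was 329 in WT CD150hi HSC replicate 3, with the others at 437 to 459.

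Among the GTPases, Irgm1 was 13.1 in WT CD150neg MPP replicate 3 (others 10.1 to 10.9), Iigp1 was 8.44 in WT CD150neg MPP replicate 1 (others 17.6 to 20.5) and Ifi47 was 52.4 in 5A3+/del CD150hi HSC replicate 3 (others 38.9 to 42.3). The mean log2 value over the members was 4.45 in WT CD150neg MPP replicate 3, with the others at 4.21 to 4.27. WT CD150lo HSC replicate 1 held 38797579 fragments, with the others at 25100946 to 28457767.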

How the results depend on the processing

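Over all alternatives, 159 of the counts of members past the threshold stayed within 1.5 times the main count and 27 moved. Most comparisons had a main count of 0, and the rule does not follow which gene passed. The members' median log2 differences moved by less than the spread between libraries (SD of the member mean, 0.137) in all 186 cases. That spread was larger in size than every main median but the 0.19 between genotypes in CD150hi HSC. Such a smaller median could fall to 0 or double and still be counted as unmoved. Leaving out each mouse gave medians between genotypes of 0.12 to 0.24 in CD150hi HSC, 0.05 to 0.13 in CD150lo HSC and 0.03 to 0.20 in CD150neg MPP. Of the values of named members, 309 kept their side of the threshold, 15 passed it, 32 were lost and 0 reversed.

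Between genotypes, the count of 0 in CD150hi HSC became 1 with no filter and 2 with a filter at FPKM 10, with a variance trend or with mouse as a random replicate block, and ranged from 0 to 1 when each mouse was left out. In CD150lo HSC it became 1 (Ifitm3) with a pseudocount of 0.1, no filter, the filter at 10, a variance trend, the random replicate block or an age covariate, and ranged from 0 to 1 when each mouse was left out, the 1 without WT mouse 5 (adjusted p = 0.0127, limma). The replicate number as a fixed replicate block, which pairs mice by number only (correlations -0.034 to 0.081), gave 0 in all 3 populations.

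Between CD150lo and CD150hi HSC, the count of 1 became 0 with no filter, with only the groups compared, in WT libraries only and in 5A3+/del libraries only, 2 with the filter at 10, the age covariate or mouse as a fixed replicate block, and 3 with a variance trend or the random replicate block. Leaving out each mouse gave 0 to 1, with 0 without WT mouse 1, 5A3+/del mouse 1 or 5A3+/del mouse 3. Between CD150neg MPP and CD150lo HSC, only the groups compared gave 1 (Ifnar2) in place of 0. Between CD150neg MPP and CD150hi HSC, the count of 7 became 4 in WT libraries only and 3 in 5A3+/del libraries only, and 6 to 8 when each mouse was left out. The fixed and random replicate blocks gave 8 and 9. The cause of these changes was not tested, beyond the fewer libraries or genes that some alternatives use.

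Each group held 4 or 5 mice. The p-values of the main fit rest on a spread pooled over all groups and libraries. In that fit, libraries of the same mouse were treated as independent. These p-values therefore do not measure only the spread between the mice of the groups compared. FPKM at the level of Ifit3 rests on few fragments, and Ifitm3 depends on the scaling at the top of the range.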
